A study of Mus musculus with 6 samples.

Results

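Il33, Hsf4 and Qdpr are 3 of the 19465 genes counted in spatial transcriptomes of the mouse brain, and they were found by their symbols in the gene list that all 6 deposited matrices share. They were chosen by measured values, the CPM levels at each age, which lay lower at P21 than in adult, so every value by age below is a description of the measure that chose them and carries no test. Over whole sections Il33 and Qdpr were highest in adult, whereas Hsf4 was not, since its mean level in aged sections lay above that in adult sections. The study placed FFPE coronal brain sections of untreated male C57BL/6J mice on Visium slides, with 2 biological replicates at each of 3 ages, namely postnatal day 21 (P21), adult (12 to 15 weeks in the labels) and aged (28 months). By the labels, P21 mice were offspring of purchased parents, adult mice were purchased from the same vendor and aged mice came from the National Institute on Aging, whereas the study's methods name that vendor alone, so that by the labels age cannot be told apart from source in either comparison. P21 and adult sections lay directly on Visium v1 slides, while aged sections were transferred with a CytAssist to v2 slides, which binds age to slide version as well in aged vs. adult. Each spot takes in RNA from several cells of different types.

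Il33 encodes an alarmin cytokine of the interleukin-1 family that is stored in the nucleus and signals, once released, through the receptor encoded by Il1rl1 and its partner Il1rap. In the brain it is known from oligodendrocytes and astrocytes. Hsf4 encodes a heat shock transcription factor best known from the lens, where its loss causes cataract. Qdpr encodes dihydropteridine reductase, the enzyme that recycles tetrahydrobiopterin, the cofactor of the hydroxylases that make dopamine and serotonin.

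In GENCODE vM21 on GRCm38, Il33 (ENSMUSG00000024810) spans chr19:29925114-29960718 on the plus strand, Hsf4 (ENSMUSG00000033249) chr8:105269801-105275845 on the plus strand and Qdpr (ENSMUSG00000015806) chr5:45434021-45450236 on the minus strand, and all 3 are protein-coding. The RefSeq promoter table for GRCm38.p6 held Il33 with 2 starts and Qdpr with 1, and Hsf4 was not matched there. The 250 bases before each start are shown because Il33 and Qdpr were both highest in the fiber tracts of adult and aged sections and their promoters can be set side by side. Capitals mark the motifs searched on both strands, which were GAANNTTC, a pair of heat shock element units, the CCAAT box, the TATA box spelled TATAAA, and the SOX motif spelled ACAAAG. None of these overlaps another in the windows shown.

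Il33, start 1, chr19:29924863-29925112, plus strand: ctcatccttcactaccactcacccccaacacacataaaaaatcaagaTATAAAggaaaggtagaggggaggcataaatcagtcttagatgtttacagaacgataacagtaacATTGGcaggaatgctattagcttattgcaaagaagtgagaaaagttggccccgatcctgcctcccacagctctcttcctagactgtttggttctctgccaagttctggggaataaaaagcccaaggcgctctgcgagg

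Il33, start 2, chr19:29945540-29945789, plus strand: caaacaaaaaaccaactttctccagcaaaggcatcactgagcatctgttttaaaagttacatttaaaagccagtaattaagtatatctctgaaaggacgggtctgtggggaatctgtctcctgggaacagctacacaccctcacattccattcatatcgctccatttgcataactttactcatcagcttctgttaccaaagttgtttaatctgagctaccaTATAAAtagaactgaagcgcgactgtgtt

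Qdpr, chr5:45450230-45450479, minus strand: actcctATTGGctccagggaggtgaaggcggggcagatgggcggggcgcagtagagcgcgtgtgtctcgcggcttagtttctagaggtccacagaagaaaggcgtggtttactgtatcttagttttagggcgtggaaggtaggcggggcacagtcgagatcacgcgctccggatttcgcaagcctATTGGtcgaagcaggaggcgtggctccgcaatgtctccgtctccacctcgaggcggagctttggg

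The first Il33 window lay wholly before the gene, and the second lay inside it with 0 of 250 bases in an annotated exon, while 7 bases of the Qdpr window fell in the first exon of the GENCODE model. TATAAA stood in both Il33 windows, 29 bases before the second start and 203 bases before the first, and in 12.4% of all 32851 promoter windows of this length. CCAAT on the reverse strand (printed as ATTGG) occurred at 1 place before the first Il33 start and at 2 places before Qdpr, against 33.8% of all windows with at least 1 match. The heat shock element and the SOX motif matched none of the 3 windows and were found in 6.69% and 16.5% of all windows. The share of G and C was 45.2% and 39.6% in the Il33 windows and 59.6% in that of Qdpr, beside a median of 52.4% over all windows, and Qdpr had 21 CG dinucleotides where each Il33 window had 4. A match is only a description of these letters.

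The 6 sections held 20336 spots with at least 250 genes and 500 UMIs each, at 2917 to 3679 spots a section. The total was 42422997 to 106783660 UMIs a section, with medians of 12074.5 to 25535 UMIs per spot. Spots were clustered without the 3 members into fiber tracts (FT), hypothalamus (HY), cortex (CTX), striatum (STR), hippocampus (HP), thalamus (TH) and smaller regions, each named from a marker panel. Mature oligodendrocyte markers defined the FT, which took in 326 to 422 spots a section. Sections on the same slide version shared 2612 to 3364 spot barcodes, since each version has a single set of barcodes, and sections on different versions shared 0.

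Levels over whole sections are CPM (UMIs of a gene over those of the section, scaled to 1e6 and by TMM factors). Il33 stood at 14.5 and 14.8 CPM in the P21 sections, at 128 and 127 CPM in the adult sections and at 92.0 and 86.2 CPM in the aged sections. Qdpr stood at 192 and 199 CPM at P21, at 472 and 478 CPM in adult and at 253 and 248 CPM in aged sections. Hsf4 stood at 7.13 and 7.40 CPM at P21, at 22.2 and 19.9 CPM in adult and at 23.0 and 25.7 CPM in aged sections. Replicates of an age lay close together for Il33 and Qdpr, and no age overlapped another for either gene. For Hsf4 the aged sections lay just above the adult ones, by less than the replicates of each of these ages differed. The share of all genes whose ages separate in this way was not computed, so nothing is read from the separation. Whole-section levels also carry the make-up of a section. The FT held 8409658 of 90096877 and 3857628 of 42422997 UMIs at P21. It held 6131301 of 52499064 and 6315294 of 51236277 UMIs in adult sections. In aged sections it held 5056330 of 81997167 and 5305222 of 106783660 UMIs. The part of this in the levels was not tested, and levels by zone are given below.

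The adult mean of Il33, 128 CPM ± 1.0 (SD, n = 2), was 8.71 times that at P21 and 1.43 times that in aged sections. For Qdpr the adult mean of 475 CPM ± 4.36 (SD, n = 2) was 2.43 times the P21 mean and 1.89 times the aged mean. Hsf4 had an adult mean of 21.1 CPM ± 1.6 (SD, n = 2), which was 2.9 times the P21 mean and 0.867 times the aged mean. As log2 fold changes fitted by edgeR over all genes, P21 vs. adult gave -3.12 (SE 0.0724) for Il33, -1.54 (SE 0.0980) for Hsf4 and -1.28 (SE 0.0571) for Qdpr. In aged vs. adult the values were -0.52 (SE 0.0653) for Il33, 0.21 (SE 0.0904) for Hsf4 and -0.92 (SE 0.0566) for Qdpr. The shares of all 11338 genes tested that edgeR called (adjusted p below 0.05, and more than 1.5-fold) were 1.85% lower at P21 and 2.89% lower in aged sections, and 17 genes were lower than adult at both ages. The age contrasts chose the members, and nothing is read from these shares.

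**Figure D1:**
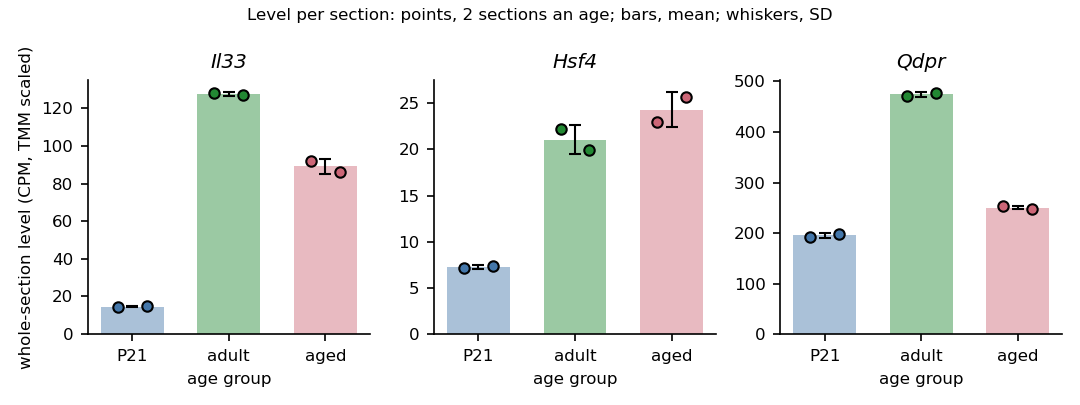
Whole-section level of Il33, Hsf4 and Qdpr in CPM (vertical axes, from 0) by age group, with a point for each of 2 sections, bars for the mean and whiskers for the SD. Il33 and Qdpr were highest in adult, at means of 128 and 475 CPM, whereas Hsf4 was at 21.1 CPM in adult and 24.3 CPM in aged sections.

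Detection by spot was also lowest at P21. In unthinned counts, 28.5% and 16.2% of spots had an Il33 UMI at P21, 74.3% and 66.9% in adult and 66.2% and 76.8% in aged sections, a measure that follows depth and in which adult and aged sections overlapped. With every spot reduced to an expected draw of 5000 UMIs and shallower spots (9 to 98 a section) left out, the Il33 shares were 7.16% and 7.02% at P21, 42.3% and 40.4% in adult and 34.1% and 35.5% in aged sections. The corresponding Qdpr shares were 58.8% and 60.2%, 81.5% and 81.3%, and 64.5% and 67.1%. For Hsf4 the shares at that depth were 3.63% and 3.70% at P21, 10.2% and 9.58% in adult and 10.6% and 11.8% in aged sections. Counts were thus sparse for Hsf4 at every age and for Il33 at P21, with a mean of 0.0932 to 0.777 Hsf4 UMIs per spot and of 0.186 to 0.357 Il33 UMIs per spot at P21.

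The genes were chosen by their levels at each age, and position in the section was tested, with each zone set against the mean of the other 5 zones and the section as a block. Earlier results of these data were known at the choice, so these tests may not be wholly independent of it. In the FT, where myelinated axons run, Il33 was 1.95 higher on the log2 scale (SE 0.218; edgeR adjusted p = 6.7e-09) and Qdpr was 1.62 higher (SE 0.0890; edgeR adjusted p = 1.2e-15). Hsf4 did not share that peak, at -0.55 (SE 0.119; edgeR adjusted p = 1.6e-04) in the FT, which missed the fold threshold. Its called peak was the HY, the seat of neuroendocrine neurons, at 1.11 (SE 0.0957; edgeR adjusted p = 8.4e-11). In these tests 22.5% of genes were called in the FT (13.1% higher there) and 12.7% in the HY.

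All 3 genes were called lower in the HP, where 17.1% of genes were called, at -1.34 for Il33, -0.85 for Hsf4 and -0.68 for Qdpr. In the CTX, where 14.8% of genes were called, Il33 at -0.95 and Qdpr at -0.86 were called lower, and Hsf4 at 0.36 was not called. The Il33 value in the CTX was 0.09 in P21 sections alone. None of the 3 was called in the TH or the STR, where 17.2% and 10.6% of genes were. Values in these zones ran from 0.20 to 0.27 in the TH and from -0.33 to -0.10 in the STR.

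The highest zone of Il33 differed between P21 and the later ages. In the FT it measured 13.1 and 7.98 CPM at P21, 345 and 339 CPM in adult and 511 and 487 CPM in aged sections. At P21 the FT sections lay at or below the levels of the CTX, with 14.9 and 12.8 CPM, and of the TH, with 17.3 and 18.0 CPM. In adult and aged sections the FT was the highest zone in 4 of 4 sections, whereas at P21 it was the fourth and the fifth of the 6 zones. The P21 values rest on 106 and 29 Il33 UMIs in the FT, against at least 2139 in each adult and aged section.

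Fits confined to an age gave the following values. Il33 in the FT was at -0.22 (edgeR adjusted p = 0.253) against the other zones in the P21 sections and at 1.88 (edgeR adjusted p = 3.3e-14) in the adult sections, both fits being added after the values had been seen. The difference between the ages was not tested. On v1 slides, with P21 and adult together, it was at 1.43, and on v2 slides, which held the aged sections alone, at 2.94. The ratio of the FT to the mean of the other zones was 0.945 and 0.545 at P21, 3.32 and 3.51 in adult and 6.88 and 6.34 in aged sections. The summed level of 16 mature oligodendrocyte genes in the FT was highest at P21, at 86310 and 98550 CPM, against 47560 and 45950 CPM in adult and 56430 and 55840 CPM in aged sections.

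Aged and adult sections differed in opposite directions between zones for Il33. The aged level lay above adult in the FT, at 1.46 times the adult mean, and in the ventricular system (VS), at 1.5 times. The adult VS values rest on 150 and 76 Il33 UMIs. In the CTX the aged level was 0.547 times the adult mean, at 34.9 and 35.6 CPM against 69.2 and 59.5 CPM. HP, TH and HY lay below adult as well, at 0.644, 0.693 and 0.771 times, with no overlap of sections. In the STR the ages overlapped, at 1.0 times. The share of all genes whose ages separate in a zone was not computed, so nothing is read from the separation. Beside the FT value, the summed level of 10 pan-neuronal genes in the FT was 7201 and 6918 CPM in adult and 3694 and 3678 CPM in aged sections, and that of 15 astrocyte genes was 5837 and 5983 CPM against 9560 and 9536 CPM. The part of these shifts in the Il33 values was not tested, and fewer cells of a type and less RNA per cell cannot be told apart in spots.

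Qdpr kept its FT peak at every age. It measured 342 and 395 CPM in the FT at P21, 1176 and 1156 CPM in adult and 933 and 892 CPM in aged sections. The FT was its highest zone in 6 of 6 sections, and CTX or HP its lowest. Relative to the other zones the FT ratio was 1.91 and 2.28 at P21, 2.99 and 3.06 in adult and 4.09 and 3.76 in aged sections. Fitted within slide version, the FT value of Qdpr was 1.43 on v1 slides and 2.08 on v2 slides. Both P21 and aged sections lay below both adult sections in 6 of 6 zones, at 0.316 to 0.530 times the adult mean at P21 and 0.535 to 0.783 times in aged sections. This repeats by zone the levels that chose the gene. The share of all genes that separate by age in a zone was not computed, so nothing is read from this count. The deepest P21 difference was in the FT, and the smallest aged difference was there too.

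Hsf4 had its highest level in the HY in 6 of 6 sections. There it measured 13.8 and 14.7 CPM at P21, 30.7 and 28.1 CPM in adult and 35.0 and 40.5 CPM in aged sections. HP or FT was lowest in each section, with 3.69 to 13.1 CPM in the HP. The HY value against the other zones was 1.07 on v1 slides and 1.12 on v2 slides, and 1.43 in P21 sections alone, the last being another added fit. P21 sections lay below adult sections in 6 of 6 zones. Aged sections lay above adult ones in TH and HY, at 1.28 times each, below in the FT, at 0.759 times, and overlapped them in the other 3 zones. Its FT values rest on 18 to 101 UMIs a section. How many of all genes separate by age in a zone was not computed, so nothing is read from these counts of zones.

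**Figure D2:**
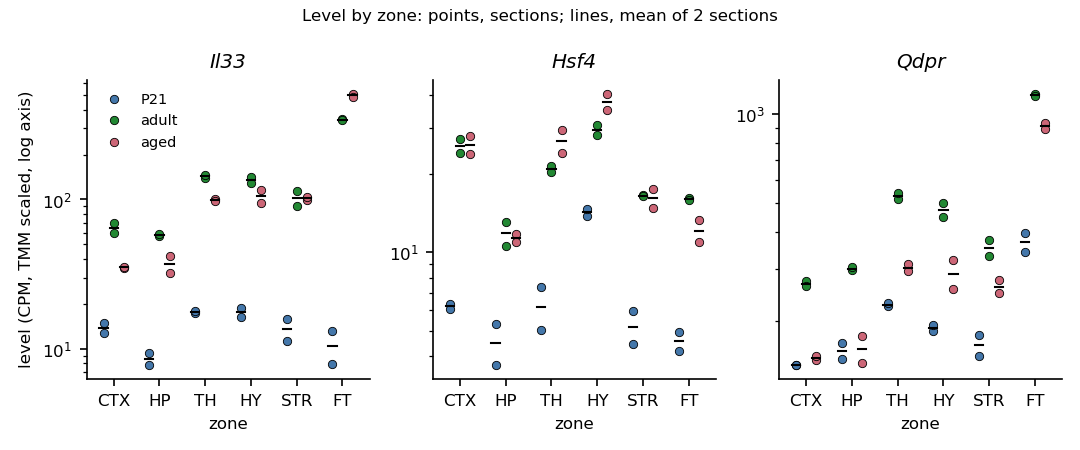
Level of each gene in CPM on a log axis by zone, with a point for each section coloured by age and a line for the mean of 2 sections. Il33 in the FT was at 7.98 and 13.1 CPM at P21 and at 487 and 511 CPM in aged sections, Qdpr peaked in the FT at each age, and Hsf4 peaked in the HY.

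The order of zones, by mean log2(CPM + 1) over 6 sections, was FT, HY, TH, STR, CTX and HP for Il33, FT, TH, HY, STR, HP and CTX for Qdpr, and HY, CTX, TH, STR, FT and HP for Hsf4. Of the 15 pairs of neighbours in these orders, 0 reached an adjusted p under 0.05 in an exact two-sided sign-flip permutation test over sections, whose smallest possible p is 0.03125 before adjustment. That smallest p was reached by 5 pairs (adjusted p = 0.0938, exact permutation), which were FT over TH, HY over STR and STR over HP for Qdpr, and HY over CTX and STR over FT for Hsf4, each in 6 of 6 sections. The mean difference was 1.14 for FT over TH in Qdpr and 0.60 for HY over CTX in Hsf4. For Il33 the FT exceeded the HY in 4 of 6 sections, with a mean of 0.95 and an SD of 1.39, and the HY exceeded the TH in 3 of 6 sections. With this floor, a pair could pass after adjustment only if many reached the floor together, so the test does not show that neighbours were alike.

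Within the hippocampus, adult Il33 and Qdpr were lower in the principal cell layers than in the matrix between them. Adult Il33 measured 97.2 and 101 CPM in the matrix, 45.3 and 46.2 CPM in CA3, 34.1 and 35.8 CPM in CA1-2 and 19.6 and 22.8 CPM in the dentate gyrus (DG). Adult Qdpr measured 420 and 469 CPM in the matrix against 164 and 172 CPM in the DG. Matrix exceeded all 3 layers in both adult sections for Il33 and Qdpr. Hsf4 ranged from 8.19 to 16.9 CPM over the adult subregions, on 8 to 35 UMIs each. Its aged mean was 15.1 CPM in CA1-2, on 12 and 30 UMIs, against 10.6 CPM in the matrix, on 19 and 17 UMIs. Nothing is read from a difference on so few counts. At P21 the matrix did not exceed all 3 layers for Il33 in the second section, with 12.4 CPM in CA3 and 8.64 CPM in the matrix, on 7 and 14 UMIs. In the reticular thalamus (RT), a small zone, adult Il33 was at 224 and 234 CPM and adult Qdpr at 765 and 854 CPM.

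**Figure D3:**
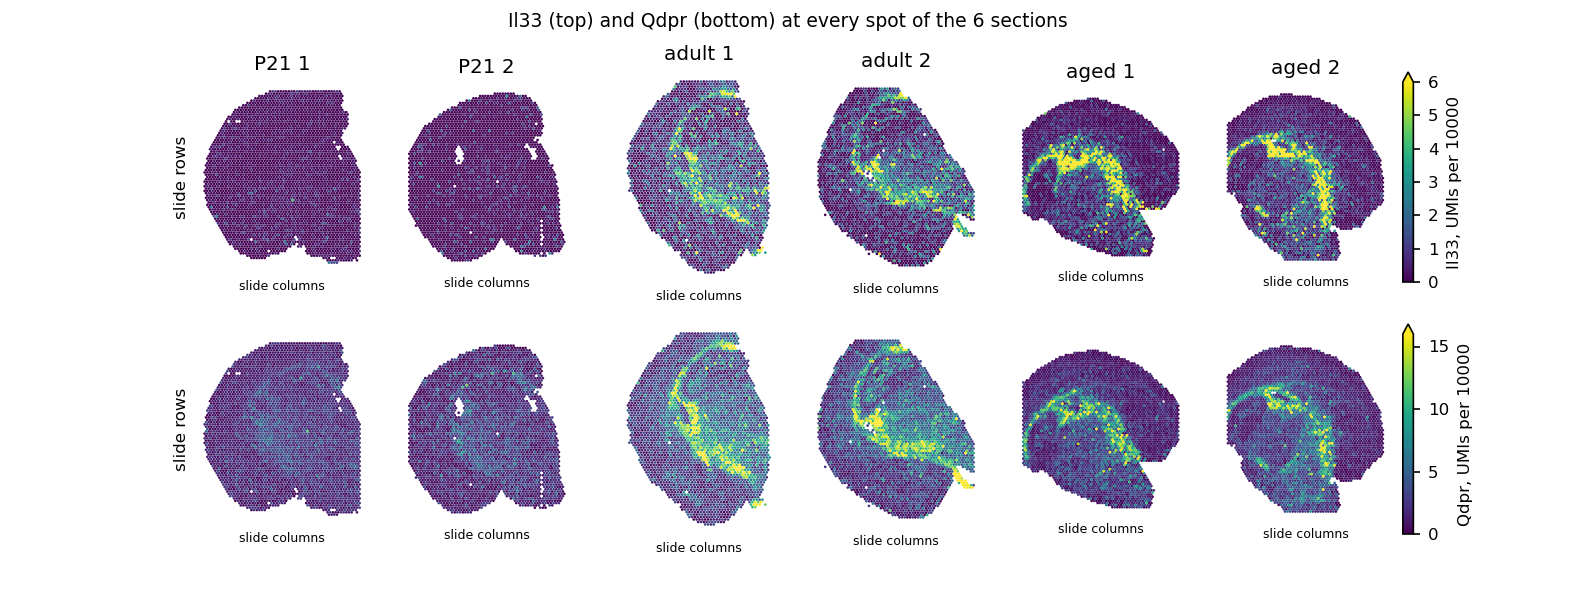
Il33 (top) and Qdpr (bottom) at each spot of the 6 sections in UMIs per 10000 (colour, values beyond the scale shown at its end), drawn on the slide grid of rows and columns. Il33 traced the fiber tracts in adult and aged sections, where the FT held 339 to 511 CPM, and showed no such band at P21, while a faint Qdpr band was seen at P21.

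Moran's I, a score of how far neighbouring spots share a level, was deposited by the authors for each gene and section and is given as their value. For Il33 it was 0.0226 and 0.0151 at P21, 0.340 and 0.366 in adult and 0.50 and 0.507 in aged sections. Qdpr scored 0.22 and 0.173 at P21, 0.508 and 0.491 in adult and 0.490 and 0.559 in aged sections. Hsf4 scored below Qdpr throughout, at 0.0284 and 0.0239, 0.0432 and 0.0404, and 0.0778 and 0.136. Among all genes listed for a section, 56.8% to 57.6% scored below Il33 at P21 and 97.7% to 98.7% in the older sections. The share below Hsf4 was 63.3% and 67.9% at P21 and 74.8% to 80.4% in the older sections. The score depends on counts per spot, which for Il33 were lowest at P21.

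Across spots of a section, the members were set against 16 mature oligodendrocyte genes, such as Mbp and Mog, which encode myelin proteins, and 15 astrocyte genes, such as Aqp4 and Gja1. These correlations are descriptions within a library, whose spots share depth and neighbourhood. The median Pearson r of Il33 with the oligodendrocyte genes was 0.0126 and -0.0120 at P21, 0.573 and 0.552 in adult and 0.659 and 0.697 in aged sections. For Qdpr the median was 0.470 and 0.388 at P21, 0.666 and 0.639 in adult and 0.648 and 0.711 in aged sections. Hsf4 had medians between -0.0861 and -0.0120 in the 6 sections. Medians of Il33 were thus near 0 at P21 and well above 0 later, while those of Qdpr were above 0 in all sections. Il33 counts were sparser at P21 than later, as given above.

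Thinning each spot to 5000 UMIs lowered these medians, to 0.349 and 0.359 for Il33 in adult, 0.483 and 0.467 in aged, and 0.00335 and -0.0137 at P21. Summing each spot with its neighbours raised them to 0.864 and 0.857 in adult and left 0.0164 and -0.00329 at P21. The relation of Il33 also held among spots outside the FT, at 0.404 and 0.377 in adult and 0.437 and 0.520 in aged sections, and among FT spots alone, at 0.397 and 0.345 in adult and 0.223 and 0.312 in aged sections. For Qdpr at P21 the medians were 0.195 and 0.251 after thinning and 0.786 and 0.730 after summing with neighbours.

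With astrocyte genes the medians were smaller for Qdpr in all sections and for Il33 in adult and aged sections. At P21 the Il33 medians were near 0 with both lists and slightly higher with astrocyte genes. Il33 had 0.0249 and 0.0418 at P21, 0.123 and 0.134 in adult and 0.127 and 0.127 in aged sections, and Qdpr had 0.0549 and 0.0598, 0.17 and 0.168, and 0.134 and 0.157. The highest astrocyte values of Il33 were with S100b, a calcium-binding protein also made by oligodendrocytes, at 0.379 and 0.391 in adult and 0.478 and 0.517 in aged sections, and with Gfap, the intermediate filament of fibrous astrocytes, at 0.303 and 0.330 in adult and 0.553 and 0.495 in aged sections. Both genes were themselves called higher in the FT, by 1.52 and 2.54 on the log2 scale. At P21 no astrocyte gene exceeded 0.101 with Il33. Hsf4 had astrocyte medians of -0.0244 to 0.00755.

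**Figure D4:**
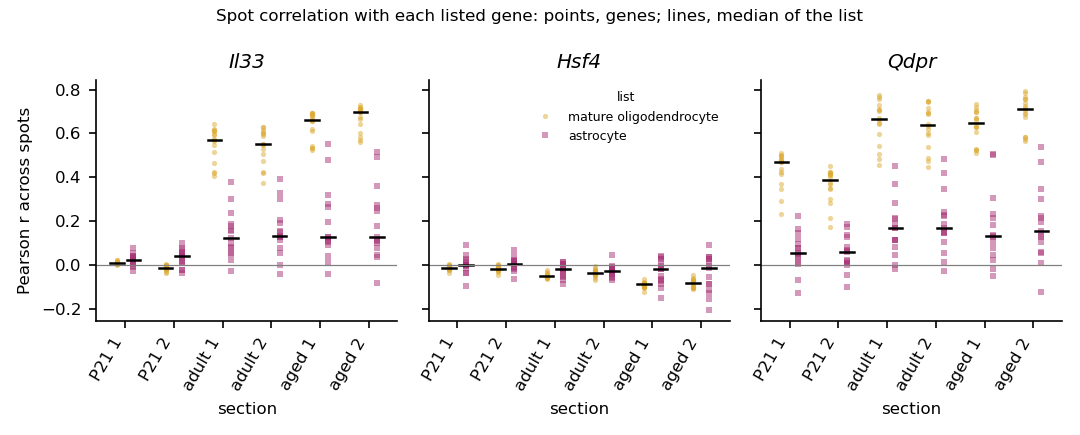
Pearson r across spots (vertical axes) of each gene with every listed mature oligodendrocyte gene (circles) and astrocyte gene (squares) by section, with a line for the median of a list. Il33 medians with oligodendrocyte genes were near 0 at P21 and between 0.552 and 0.697 afterwards, those of Qdpr lay between 0.388 and 0.711 in all sections, and those of Hsf4 lay near 0.

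Il33 and Qdpr followed each other across spots in adult sections, with r of 0.565 and 0.545, and in aged sections, with 0.595 and 0.647, but not at P21, with -0.00194 and 0.0286. Hsf4 had r between -0.0751 and 0.0241 with Qdpr and between -0.0719 and 0.0199 with Il33. By mean r over the 6 sections, among 11338 genes detected in at least 10% of spots, those most like Il33 included Mbp (0.444), Trf (0.437), Mobp (0.437) and Mag (0.437), all expressed by oligodendrocytes. This rank rests on adult and aged sections, since r with Mbp was 0.00638 and 0.00029 at P21. At P21 alone the genes most like Il33 were Slc6a11 (0.10), Sparc (0.0842), Nap1l5 (0.0826), Resp18 (0.0823) and Atp1b2 (0.0779), all weak values in sparse counts. Those most like Qdpr over all sections included Mbp (0.658), Mobp (0.655), Cnp (0.630) and Mag (0.626). Those most like Hsf4 were Nap1l5 (0.143), Resp18 (0.136), Peg3 (0.131), Scg2 (0.123) and Gprasp1 (0.122), at values too low to rank firmly in counts this sparse.

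Over the 36 sums of section and zone, which also carry the age pattern, the genes most like Il33 were Dennd1b (r = 0.939), Abca8a (0.924), Ankib1 (0.920), Crebrf (0.919) and Appl2 (0.909). For Qdpr they were Car2 (0.964), Aif1l (0.958), Csrp1 (0.948), Olfml1 (0.947) and Kif13b (0.947). For Hsf4 they were Ift81 (0.900), Faf1 (0.898), Dusp28 (0.891), Tasp1 (0.877) and E2f6 (0.863). The sums share libraries and depth, and no function is implied.

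Spots ranked by the summed level of the oligodendrocyte genes and split into 10 bins of equal size gave the levels along a gradient of myelin RNA, here as CPM without TMM scaling. Il33 was at 14.6 and 10.9 CPM in the lowest bin and 14.0 and 10.3 CPM in the highest bin at P21. It went from 29.0 and 22.9 to 384 and 379 CPM in adult and from 17.0 and 17.4 to 547 and 522 CPM in aged sections, that is 13.2 and 16.5 times and 32.2 and 30.0 times. Even in the lowest adult bin, which held no FT spot, Il33 lay above every P21 bin, whose highest value was 20.1 CPM.

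Qdpr went from 118 and 119 to 335 and 376 CPM at P21, from 157 and 143 to 1269 and 1284 CPM in adult, and from 85.0 and 79.4 to 968 and 951 CPM in aged sections. The highest bin was thus 2.83 to 3.16 times the lowest at P21, 8.09 to 8.97 times in adult and 11.4 to 12.0 times in aged sections. In the lowest bin the aged sections lay below P21 for Qdpr, and in the highest bin they lay above P21. Hsf4 was lower in the highest bin than in the lowest in 6 of 6 sections, at 0.495 to 0.901 times, although the second P21 section turned to 1.05 times when the list was used without its most abundant gene. Along the astrocyte gradient, Il33 in the highest bin was 1.18 to 1.41 times the lowest at P21, 3.24 to 4.15 times in adult and 8.10 to 10.7 times in aged sections. Its peak lay in bins 7 to 9 rather than in the last. Without Slc1a2, the most abundant gene of that list, the ratios were 1.39 and 2.12 at P21, 4.40 and 5.37 in adult and 15.4 and 11.3 in aged sections. The peak was then in the last bin in the second P21 section and both aged sections, and in bins 8 or 9 in the others.

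**Figure D5:**
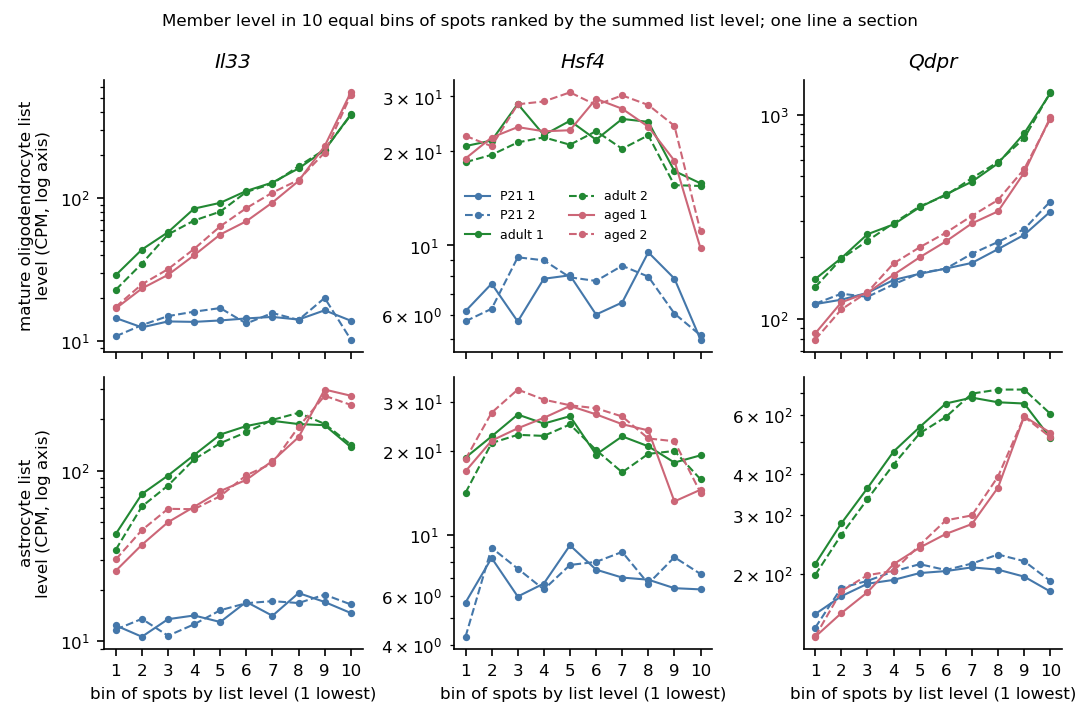
Level of each gene in CPM on a log axis in 10 equal bins of spots ranked by the summed level of mature oligodendrocyte genes (top) or astrocyte genes (bottom), with a line for each section coloured by age. Il33 was flat at P21, between 10.3 and 20.1 CPM, and climbed to 379 to 547 CPM in adult and aged sections, while Qdpr climbed at every age and Hsf4 was lowest or near lowest in the top oligodendrocyte bin.

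Genes around the members were read from whole sections, where the age contrasts apply and where the FT shares given above enter as well. Mature oligodendrocyte genes were mostly higher at P21, the age at which Il33 and Qdpr were lowest. Of 16 mature oligodendrocyte genes tested, 10 were called higher and 1 lower in P21 vs. adult, with a median log2 fold change of 1.04 against -0.0013 over all genes, and 3.37% of all genes were called higher. Cldn11, a tight junction protein of myelin, rose the most, by 1.72 (edgeR adjusted p = 7.6e-06), ahead of Ugt8a, at 1.59. Hapln2, a link protein of the nodes of Ranvier, was the 1 gene called lower, at -0.94 (edgeR adjusted p = 2.5e-05). In aged vs. adult, 8 were called lower and 1 higher, with a median of -0.57 against 0.0016 over all genes, of which 2.89% were called lower and 6.02% higher. Opalin, at -2.81, Mag, at -0.99, and Tspan2, at -0.97, fell the most, whereas Hapln2 rose by 0.78.

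The counts that follow stand beside 3.37% of all genes called higher and 1.85% lower at P21, and 6.02% higher and 2.89% lower in aged sections. Of 7 newly formed oligodendrocyte genes tested, 4 were higher at P21, with Enpp6 at 1.55, Itpr2 at 1.14 and Rras2 at 0.89. In aged sections 3 were lower and 1, Tcf7l2, was higher. That call was lost without the first adult section, and also without the filter on detection in 10% of spots. Tcf7l2 was also in the marker panel of the TH, and in the FT it was at -0.12 and not called. Of 10 precursor genes 5 were higher at P21, with Gpr17 at 2.15, Sox10 at 1.10 and Vcan at 0.83, and 3 were lower in aged sections, or 1 without the second aged section. Among 15 astrocyte genes 1 was called at P21, namely Agt, the angiotensin precursor, at 0.74, and 2 in aged sections, namely Gfap at 0.90 and Fgfr3 at 0.77. Medians were 0.12 and 0.09. Of 10 microglial genes edgeR and DESeq2 called 0 at P21 (2 had an unadjusted p under 0.05), and in aged sections Trem2 at 1.07 and C1qb at 0.83 were higher and P2ry12 at -0.60 was lower, the last call being lost without the second adult section. Of 10 pan-neuronal genes 0 were called at P21 by either tool (5 had an unadjusted p under 0.05), and Syt1 at 0.99 was higher and Stmn2 at -0.68 lower in aged sections.

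Genes of blood, vessels and meninges moved in the same comparisons. All 3 erythrocyte genes tested were higher at P21, with Hbb-bt at 3.05, Hbb-bs at 2.96 and Hba-a2 at 2.74. Of 5 meningeal fibroblast genes 2 were higher at P21, namely Col1a1 at 1.61 and Col1a2 at 1.29. In aged sections 3 were lower, namely Col1a1 at -1.34, Col1a2 at -0.91 and Islr at -0.80. Of the larger number tested without the filter on low counts, 7 were lower in aged sections, beside 914 of all genes. No share is formed from that count, and nothing is read from it. Of 6 endothelial genes tested, 1 was called higher at P21. In aged sections 1 was called higher and 3 lower, namely Cldn5 at -1.25, Itm2a at -0.85 and Kdr at -0.68. The higher call in aged sections was lost without the filter on detection and on counts thinned to the smallest section. The part of these blood, vessel and meningeal genes in the levels of Il33, Hsf4 and Qdpr was not tested.

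Among 14 listed receptor and signalling genes of Il33, 9 were tested. In aged vs. adult 0 of these were called by edgeR or DESeq2, and 3 had an unadjusted p under 0.05 (median 0.04). That count depended on the filter. Of the larger number tested without the filter on detection, 3 were called higher and 2 lower in aged sections. Beside them, 4301 of all genes were called higher and 847 lower. The numbers tested that way are not given here, so nothing is read from these counts. Rela, an NF-kB subunit, was at 0.44 in aged vs. adult, with an adjusted p under the threshold and a fold below it. Il1rl1, the receptor gene, was below the detection filter, at means of 0.313 CPM at P21, 0.146 CPM in adult and 0.376 CPM in aged sections. In the FT, 5 of 9 were called higher, beside 13.1% of all genes, with Il1rap, the co-receptor, at 0.90, Rela at 0.88, Traf6 at 0.77, Myd88 at 0.72 and Irak2 at 0.62, and the median was 0.62 against -0.06 over all genes.

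Among 16 listed genes of tetrahydrobiopterin synthesis, recycling and use, 9 were tested, and 1, Pcbd1, which acts with Qdpr in recycling the cofactor, was called higher at P21, at 0.71 (edgeR adjusted p = 0.0022), a call that was lost without the first adult section. In aged vs. adult 0 were called by edgeR or DESeq2, with 2 at an unadjusted p under 0.05, and Cbr1 had the largest value, at 0.51. Medians were -0.01 and 0.04. These counts also depended on the filter. Of the larger number tested without the filter on detection, 3 were called higher at P21 and 4 in aged sections. Beside them, 1031 and 4301 of all genes were called higher. Without the numbers tested that way no share can be formed, and nothing is read from these counts. Pts and Spr, which complete the synthesis of the cofactor, were at 0.06 and -0.28 in P21 vs. adult and at -0.07 and -0.06 in aged vs. adult. Gch1, the entry enzyme, was below the detection filter, at 5.08, 2.78 and 4.93 CPM. In the FT, 2 of 9 were called higher and 7 were not called, beside 13.1% of all genes called higher. The median was 0.06 against -0.06 over all genes. The largest value was that of Agmo, a monooxygenase that uses the cofactor, at 1.12.

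Among 5 heat shock factor genes listed, Hsf2 and the factor-binding Hsbp1 were tested, and Hsf2 was called higher in aged vs. adult, at 0.59, a call lost without the first adult or the first aged section. The call was also lost without the filter on detection in 10% of spots. Of 12 heat shock proteins and cochaperones tested, 0 were called at P21 by edgeR or DESeq2 (1 had an unadjusted p under 0.05), and 4 were higher in aged sections (3 by DESeq2), beside 6.02% of all genes, namely Hspa1b at 1.90, Hspa1a at 1.68, Hspb1 at 1.27 and Dnajb1 at 0.59. The aged sections differed widely in these, with 66.1 CPM ± 49.4 (SD, n = 2) for Hspa1b. In the FT 5 of 12 were higher, beside 13.1% of all genes, led by Cryab, a small heat shock protein, at 2.20, whereas Hsf4 was not. Of 10 lens genes linked to Hsf4, 2 passed the filter, Bfsp2, a lens filament protein, which was higher at P21 at 0.88, and Vim, which was higher in aged sections at 0.87. Without the filter on detection in 10% of spots, 6 were called higher in aged sections, beside 4301 of all genes. Nothing is read from that count. In the FT both Bfsp2, at 2.17, and Vim, at 2.33, were called higher, beside 13.1% of all genes, where Hsf4 was at -0.55.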

How the data were processed

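Per the labels and file headers, the authors aligned FFPE probe reads to mm10 with Space Ranger 2.0.0 (P21 and adult) or 3.1.1 (aged), although the submitters' notes name 2.1.0, and they also used Seurat 5.1.0. The deposited matrices hold UMI counts per gene and spot, not normalized, for 2 sections an age. Moran's I is a score that the authors deposited, and its deposited p-values and normalized signal were not used. Images were not analysed here.

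Spots under 250 genes or 500 UMIs were removed (20336 of 20348 kept). Spots were clustered with scanpy 1.11.5 and leidenalg 0.10.2 (3000 variable genes without the members, 10 components, 20 neighbours, resolution 0.5, 16 clusters; 0.1 and 4 clusters within the hippocampus) and named by marker panels, and panel scores alone gave the same zone for 79.37% of spots. Counts summed by section, or by section and zone, were tested in edgeR 4.0.16 (R 4.3.3) by quasi-likelihood with TMM factors over 11338 genes passing filterByExpr and found in at least 10% of spots, with an adjusted p under 0.05 and a fold over 1.5 as a call. SE is the log2 fold change over the square root of F. The fits were tested on simulated data. DESeq2 1.42.0, other filters, scalings, zones and left-out sections were alternatives. Spot correlations used counts scaled to 10000 per spot on a log scale. Zone order used log2(CPM + 1). P-values of the age tests rest on 2 biological replicates an age. Those of the zone tests rest on sums by section and zone, with the section as a block. They measure the spread left between these sums, pooled over ages unless a fit was confined to an age or slide version. In the pooled fits, a shift of a zone with age enters that spread. Those of the zone order rest on sign flips over sections. In each list the called genes with the 3 largest changes and those of a defining role are named, and 5 like genes per member. The members and lists were chosen with earlier results of these data known. Promoters are RefSeq's and positions GENCODE vM21's. Results of some listed genes are not reported here.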

Additional observations from a re-analysis of the deposited data

Results flagged for a closer look

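The FT was the highest zone of Il33 in adult and aged sections but not at P21. The FT level over the mean of the other 5 zones was 1.77 on the log2 scale in adult and 2.72 in aged sections, where all sections lay above 0. At P21 the mean was -0.48, with sections at -0.0820 and -0.876, on 106 and 29 Il33 UMIs in the FT. The fit on P21 sections alone gave -0.22 and no call (edgeR adjusted p = 0.253), so a lower level in the FT at P21 is not shown. The difference between ages was not tested.

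Il33 in aged over adult sections was 0.54 on the log2 scale in the FT, with both aged sections above both adult sections, and with both below it was -0.37 in the HY, -0.53 in the TH, -0.63 in the HP and -0.87 in the CTX. The difference between zones was not tested.

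Hsf4 in aged over adult sections was 0.35 in the TH and 0.36 in the HY, with both aged sections above, and -0.40 in the FT, with both below. In the CTX, HP and STR the ages overlapped. The FT value rests on 54 and 70 Hsf4 UMIs in aged and 100 and 101 in adult sections. How many of all genes separate by age in a zone was not computed, so nothing is read from the separation. The difference between zones was not tested.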

How the results depend on the processing

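The calls of Il33 and Qdpr in the FT and of Hsf4 in the HY kept direction and call under every alternative run except the P21 sections alone, where Il33 in the FT was -0.22. In all, 274 of 288 zone values kept both. With P21 sections alone, Il33 in the CTX was 0.0865, Qdpr in the HY -0.10 and Qdpr in the HP -0.37, no longer called, as with P21 and adult sections only (-0.56). In aged sections alone, Il33 in the STR was 0.14 and Hsf4 in the FT -0.79, now called, as it was with no filter (-0.59). With zones from panel scores, Il33 was -0.0237 in the HY and 0.11 in the STR, Qdpr was -0.23 in the HY, Hsf4 in the STR was called at -0.58, and the order turned for HY over TH in Il33 (-0.27), STR over FT in Hsf4 (-0.30) and HY over STR in Qdpr (-0.10). Leaving out each section gave -0.0306 to 0.0509 for Qdpr in the HY.

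Age levels moved beyond the replicate SD with filterByExpr alone, with no filter and on thinned counts for Il33 at P21 (-3.15 in each), and with the first 2 for aged Il33 (-0.63 and -0.64) and aged Qdpr (-1.03 and -1.04). With filterByExpr alone and with no filter, genes called were 1031 and 1034 higher and 429 and 447 lower at P21, 4301 and 5289 higher and 847 and 914 lower in aged sections, and 1 astrocyte gene was lower in aged sections under both. The mean median r was, summed with adjacent spots, 0.255 for Il33 with astrocyte genes, -0.0817 and 0.0196 for Hsf4 with oligodendrocyte and astrocyte genes, and 0.854 and 0.288 for Qdpr. It was 0.00473, 0.00245, 0.308 and -0.0334 within the FT for Il33 and Hsf4 with astrocyte genes and Qdpr with oligodendrocyte and astrocyte genes. Outside the FT it was -0.00219 for Hsf4 and 0.441 for Qdpr with oligodendrocyte genes, thinned it was 0.370 and 0.0692 for Qdpr, and the Spearman value of Hsf4 with astrocyte genes was -0.0246. The cause was not tested.

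Samples with the same replicate number had deviations correlated at 0.152, -0.138 and -0.412 between pairs of ages. With 2 sections an age these deviations mirror each other, so the sign depends on the numbering alone. The check cannot show whether such samples share more than a number. With the replicate block, Il33 was at -3.12 and -0.52, and calls were 382, 211, 677 and 327 against 382, 210, 682 and 328. With aged numbers crossed, chosen after seeing the data like the fits on P21 or adult sections alone, they were 384, 211, 677 and 330. With 2 sections an age, with age and slide version bound together in aged sections and source, by the labels, bound to age throughout, low counts of Hsf4 and of Il33 at P21 limit what can be seen.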
